A study of Arabidopsis thaliana with 16 samples.

Results

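Whole seedlings of the Arabidopsis thaliana mutant seu-6 were compared with seedlings of the wild type Col-0 after 6 h in plain liquid half-strength MS medium. The comparison uses 4 of the 16 poly(A) RNA sequencing libraries of the study, 2 of seu-6 and 2 of Col-0, each group with 2 biological replicates, and was read across all genes. These 4 libraries were chosen by genotype, age and medium as labelled, a rule that uses no measured value. The seedlings were 10 days old, and all plants of the study grew under 16 h of light and 8 h of dark. In the same experiment both genotypes were also kept for 6 h in 250 mM sorbitol, and in a separate experiment 14-day seedlings spent 15 min in liquid medium alone or with 300 mM NaCl. The title of the study concerns condensation of the SEUSS protein and tolerance of hyperosmotic stress. With no osmoticum added, the 6 h mock shows how far the 2 genotypes already differed in the medium that served as baseline. The mutant is represented by 1 allele, the tissue is the whole seedling, and neither the number of seedlings per library nor the hour of harvest is given in the sources used here.

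SEUSS (SEU) is a nuclear co-regulator of transcription that has no DNA-binding domain of its own. It pairs with the co-repressor LEUNIG (LUG) and is brought to genes by transcription factors, and it was first known for keeping the floral gene AGAMOUS silent in the outer organs of the flower. In seedlings it is known as a partner of PIF4, a basic helix-loop-helix factor that promotes hypocotyl growth in shade and warmth by raising auxin synthesis. Auxin, jasmonate, salicylate and abscisic acid (ABA) pathways each have well-known target genes, so the transcript levels of those genes serve here to describe the mutant.

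The 4 libraries held between 40185062 and 41757731 gene counts, and replicates correlated across genes with r of 0.997 in seu-6 and 0.998 in Col-0. On the log2 scale the spread per library was 0.112 in seu-6 and 0.0880 in Col-0. In seu-6 replicate 1, reads outside the gene counts made up 12.7% of the library, against 8.78% to 9.28% in the other 3 libraries, and organelle genes took 0.149% of gene counts, against 0.0364% to 0.0446%. Where leaving out this or another single library moved a count of listed genes by more than 1.5 times, the count without it is given. In a principal component analysis of the 8 libraries of the 10-day experiment, the first component (78.1% of the variance) separated sorbitol from mock and the next (16.1%) separated seu-6 from Col-0.

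The targeted gene was nearly silent in the mutant. SEU (AT1G43850) had 0.650 and 0.502 CPM in seu-6, against 56.4 and 53.0 CPM in Col-0, which is 27 and 21 counts in seu-6 and 2462 and 2252 counts in Col-0. The gene lies on chromosome 1 (chr1:16616988-16622049 of the RefSeq TAIR10.1 annotation). Both seu-6 libraries lay far below both Col-0 libraries, with a log2 fold change of -6.56 ± 0.12 and an adjusted p of 7.5e-47 by edgeR's quasi-likelihood test. CPM are counts per 1000000 gene counts of the library, scaled between libraries by TMM. Every log2 fold change is seu-6 over Col-0, from edgeR with 2 libraries per group, with its standard error after ±, and every p is adjusted by Benjamini-Hochberg over all genes tested. "Rose", "fell" and "changed" are used of genes whose adjusted p was under 0.05. None of the 5 relatives and partners passed that threshold. LUG, the co-repressor that SEU recruits, had 77.7 and 81.2 CPM in seu-6, against 76.5 and 84.7 CPM in Col-0, and its homologue LUH had 244 and 238 CPM in seu-6, against 234 and 234 CPM in Col-0. Of the SEUSS-LIKE genes, SLK1 had 49.7 and 53.4 CPM in seu-6, against 52.6 and 52.3 CPM in Col-0, and SLK3 had 10.6 and 12.3 CPM in seu-6, against 10.0 and 10.8 CPM in Col-0. SLK2 had 52.6 and 46.6 CPM in seu-6, against 43.3 and 46.7 CPM in Col-0, with a log2 fold change of 0.14 ± 0.056 and an adjusted p of 0.054 by edgeR; it passed the threshold when low counts were not filtered out (0.038), without Col-0 replicate 2 (0.021) and without seu-6 replicate 2 (0.0068).

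Loss of SEU came with many changes of modest size. Of 21633 genes tested, 3461 (16.0%) rose and 2552 (11.8%) fell in seu-6, 27.8% of genes in all. The median log2 fold change was 0.35 among those that rose and -0.40 among those that fell, beside 0.01 over all genes tested. At least 2-fold changes were found in 467 genes that rose and 387 that fell, and at least 4-fold changes in 177 and 123. Since tissue was sampled in bulk, fewer cells of a type and less RNA per cell cannot be told apart in any of these values. Replicates came from the same experiment, and no source says whether seedlings were grown in separate batches, so the p-values measure the spread between these libraries.

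Seed storage genes, the immune marker PR1 and an uncharacterised gene were among the genes that rose most. AT4G29200, a gene at chr4:14398054-14400198 that the RefSeq TAIR10.1 annotation relates to a beta-galactosidase, had 34.0 and 34.4 CPM in seu-6 and no count in either Col-0 library, which is at least 492-fold higher in seu-6 against a floor of 3 counts per Col-0 library. It separated the genotypes throughout the study, with at least 13.9 CPM in all 8 seu-6 libraries and at most 0.0903 CPM in all 8 Col-0 libraries. The 15 genes of largest rise and an average log2 CPM of 2 or more also included 4 seed storage genes, described further on. These were CRA1, CRU2, CRU3 and SESA3, with average log2 CPM of 3.93, 2.00, 2.90 and 2.78. Outside the 2 seu-6 libraries compared here they had at most 1.07 CPM in any library. They therefore passed the cut on average level through those 2 libraries, and their place among the 15 carries no weight of its own. Others among the 15 were PR1 (log2 fold change 4.05 ± 0.10), LURP1, a gene induced by oomycete infection (3.53 ± 0.10), the receptor-like kinase gene CRK6 (3.61 ± 0.24) and the aminotransferase gene TAT3 (3.09 ± 0.12). NATA1, which encodes an ornithine acetyltransferase, had 4.79 and 4.80 CPM in seu-6, against 0.504 and 0.0235 CPM in Col-0. Col-0 replicate 2 had only 1 count of it. Both seu-6 libraries stood above both Col-0 libraries, which the rule for this group required. CRK6 belongs to a family with close copies, so its reads may be split among them. PNP-A, a small secreted peptide gene, had a log2 fold change of 3.21 ± 0.23, and the aspartyl protease gene AT5G10760 one of 3.33 ± 0.12. For DIP2 the counts were 3 and 7 in seu-6 and 0 and 1 in Col-0, near the floor of 3 counts. Its average level came from the sorbitol libraries, with 14.9 and 15.5 CPM in Col-0 and 6.46 and 5.80 CPM in seu-6. DIP2 (3.07 ± 1.00) lost its call under DESeq2 (adjusted p = 0.097), without Col-0 replicate 1 (0.17) and without seu-6 replicate 2 (0.23).

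The genes that fell most, after SEU, included an auxin-induced repressor, a myrosinase and regulators of growth. IAA29, an auxin-induced repressor, had 2.33 and 2.32 CPM in seu-6, against 24.1 and 27.6 CPM in Col-0, with a log2 fold change of -3.47 ± 0.14. TGG2 (chr5:9072708-9075777), one of the leaf myrosinases that hydrolyse glucosinolates, had 72.9 and 70.1 CPM in seu-6, against 649 and 621 CPM in Col-0, with a log2 fold change of -3.15 ± 0.037 and an adjusted p of 2.0e-58 by edgeR. GRF5, a growth-regulating factor that promotes leaf cell proliferation, had a log2 fold change of -3.04 ± 0.17. HEC1, a basic helix-loop-helix gene of gynoecium and meristem development, had 1.11 and 0.788 CPM in seu-6, against 5.98 and 5.31 CPM in Col-0. FAR1, a reductase that makes primary alcohols for suberin, had 12.3 and 13.6 CPM in seu-6, against 77.0 and 79.1 CPM in Col-0. In each of these 5 genes both seu-6 libraries lay below both Col-0 libraries, which the rule for naming the largest changes required. AT1G24996 also stood in this group with 3.803 and 3.46 CPM in seu-6, against 52.3 and 50.4 CPM in Col-0, but its level varied between replicates elsewhere: 1 Col-0 library of the 15 min mock had 52.5 CPM and 1 seu-6 library in NaCl had 32.5 CPM, and its call was lost in a fit of all 16 libraries (adjusted p = 0.057 by edgeR). SEU, TGG2 and AT4G29200 were the 3 genes in which the lowest library of one genotype exceeded 4 times the highest of the other by more than 0.5 CPM over 8 seu-6 and 8 Col-0 libraries, a criterion set after the values were seen.

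**Figure D1:**
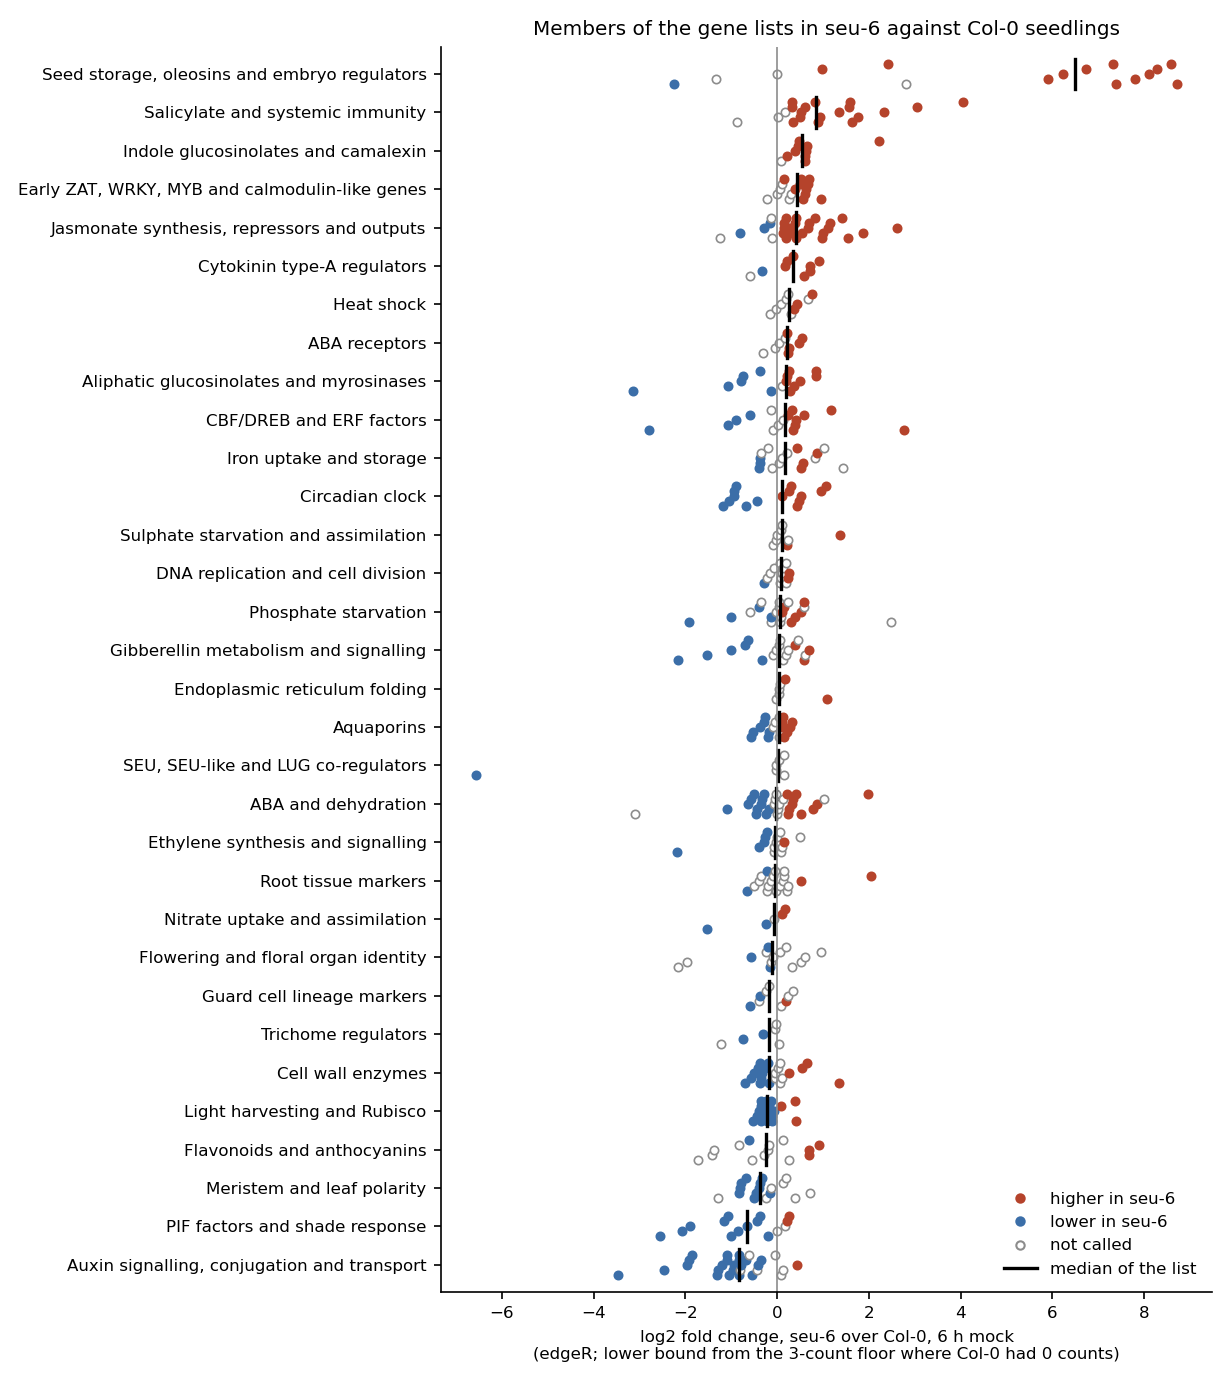
Log2 fold change of seu-6 over Col-0 in the 6 h mock (horizontal axis) for the members of gene lists (1 list per line), with filled points for members whose edgeR adjusted p is under 0.05, open points for the others and a bar at the list median; a lower bound from the floor of 3 counts is plotted where Col-0 had 0 counts. The auxin and the PIF and shade lists lie mostly left of 0, with medians of -0.83 and -0.65, and the salicylate list lies mostly right of 0, with a median of 0.85.

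Auxin genes mostly fell. Of 28 auxin genes tested, 21 fell and 1 rose, beside 11.8% of all genes that fell and 16.0% that rose. The median log2 fold change was -0.83 beside 0.01 for all genes. Of the 22 calls, 19 held under every alternative setting, and without seu-6 replicate 1, 18 fell and 2 rose. This list, like those that follow, was chosen with earlier results of these data known. The shares of all genes are therefore a scale for the counts of every list, and an excess over them is not a test. The Aux/IAA genes encode repressors that auxin itself induces. IAA2 had 46.3 and 46.8 CPM in seu-6, against 117 and 111 CPM in Col-0 (log2 fold change -1.29 ± 0.047), and IAA19, linked to hypocotyl elongation, had 7.10 and 7.33 CPM in seu-6, against 15.1 and 18.22 CPM in Col-0 (-1.21 ± 0.13). IAA1, IAA3 and IAA4 also fell, with log2 fold changes of -1.05, -0.84 and -0.67. In all 5 genes the seu-6 libraries stayed below those of Col-0. GH3 enzymes join auxin to amino acids and so inactivate it. GH3.3 had 4.96 and 6.31 CPM in seu-6, against 34.7 and 27.7 CPM in Col-0, a log2 fold change of -2.47 ± 0.12, and GH3.5 had 8.33 and 8.77 CPM in seu-6, against 30.5 and 34.4 CPM in Col-0, one of -1.92 ± 0.079. GH3.2 and GH3.6 fell as well (-0.83 and -1.10), while GH3.1 did not pass the test (-0.44). 

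Transport genes moved the same way. The efflux carrier gene PIN7 had 77.0 and 80.6 CPM in seu-6, against 197 and 196 CPM in Col-0, with a log2 fold change of -1.32 ± 0.038 and an adjusted p of 3.2e-37 by edgeR. PIN3, the carrier of bending and shade growth, had 67.0 and 66.1 CPM in seu-6, against 146 and 139 CPM in Col-0, and PIN4 had 46.0 and 51.6 CPM in seu-6, against 95.5 and 95.8 CPM in Col-0. For each of the 3 carriers both seu-6 libraries were below both Col-0 libraries, and replicates of a genotype were alike. The influx carrier genes AUX1 (-0.41) and LAX2 (-0.78) fell by less, and LAX3 had 91.8 and 103 CPM in seu-6, against 89.9 and 95.1 CPM in Col-0, and was not called. Synthesis genes split. YUC8, which catalyses the last step of auxin synthesis and is a known PIF target, had 2.19 and 3.11 CPM in seu-6, against 11.1 and 9.62 CPM in Col-0, a log2 fold change of -1.96 ± 0.17. TAA1, the enzyme of the preceding step, was the auxin gene that rose, with 33.0 and 32.0 CPM in seu-6, against 24.4 and 23.6 CPM in Col-0, and a log2 fold change of 0.44 ± 0.074. YUC9 had 2.503 and 2.604 CPM in seu-6, against 2.57 and 2.68 CPM in Col-0, where the libraries of the genotypes overlapped. The auxin response factor gene MP fell (-0.55), and its relative ETT was not called (0.12).

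Most shade and PIF-linked genes fell too. Of 15 tested, 11 fell and 2 rose, with a median of -0.65; without seu-6 replicate 1, 11 fell and none rose, and without Col-0 replicate 2, 10 fell and none rose. XTR7, a cell wall hydrolase gene used as a shade marker, had 24.0 and 23.0 CPM in seu-6, against 96.9 and 101 CPM in Col-0, with a log2 fold change of -2.07 ± 0.063 and an adjusted p of 2.3e-36 by edgeR. PIL1, a rapid shade marker, had 1.23 and 1.15 CPM in seu-6, against 4.61 and 4.28 CPM in Col-0, a log2 fold change of -1.90 ± 0.23. HB-2, the homeobox gene of the shade response, had 10.3 and 10.2 CPM in seu-6, against 21.5 and 21.6 CPM in Col-0, a log2 fold change of -1.07 ± 0.086. These markers were lower in both seu-6 libraries than in either Col-0 library. PRE1, a small growth-promoting helix-loop-helix gene, had 0.289 and 0.334 CPM in seu-6, against 2.199 and 1.505 CPM in Col-0. HFR1 and PAR1, which restrain the shade response, also fell (-0.65 and -0.86). The PIF genes did not move together. PIF4 had 84.7 and 85.0 CPM in seu-6, against 86.6 and 82.7 CPM in Col-0, with overlapping libraries, and was not called. PIF3 had 23.0 and 25.1 CPM in seu-6, against 50.5 and 45.9 CPM in Col-0, and fell by 1.00 on the log2 scale, and PIF5 had 102 and 94.5 CPM in seu-6, against 134 and 134 CPM in Col-0. PHYB, the red light receptor gene, fell slightly (-0.20).

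**Figure D2:**
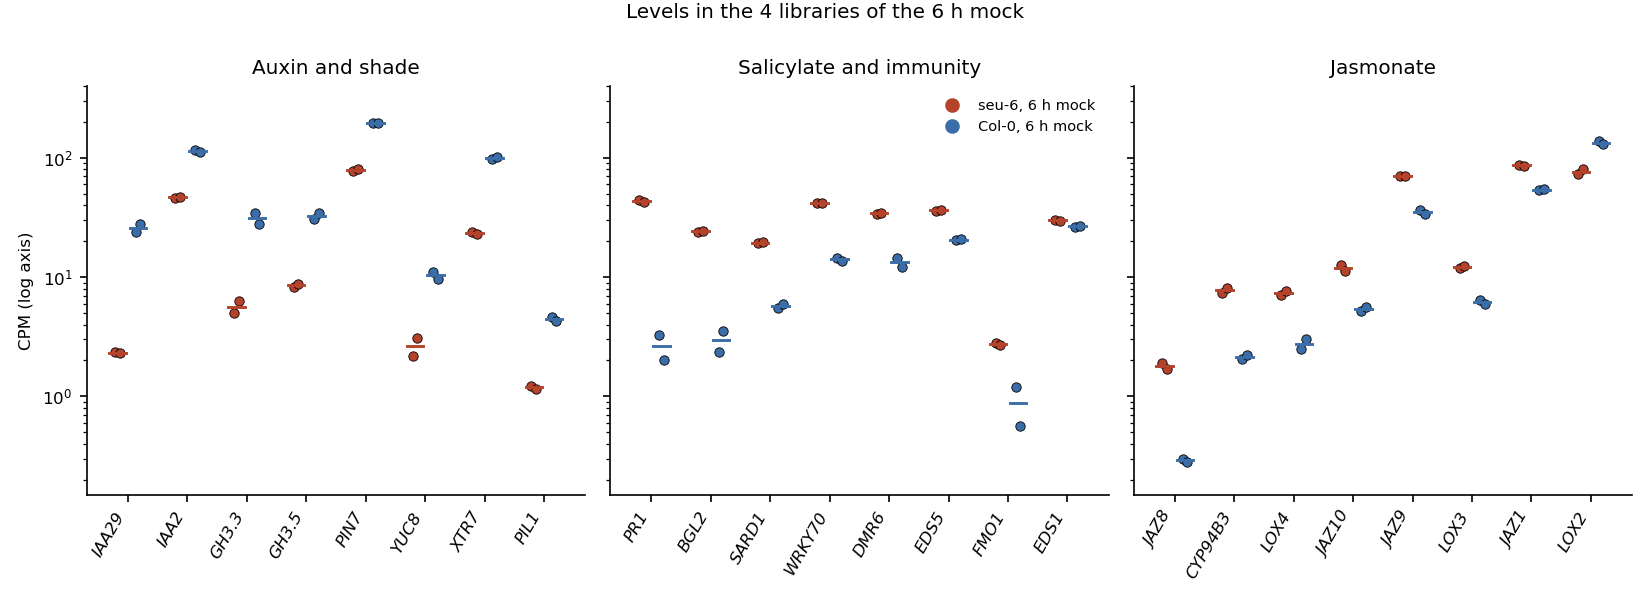
Level in CPM (vertical log axis) of auxin and shade, salicylate and jasmonate genes (horizontal axis) in the 2 seu-6 libraries (left of each pair) and the 2 Col-0 libraries (right), with 1 point per library and a line at the mean. IAA29 stands at 2.32 and 2.33 CPM in seu-6 and at 24.1 and 27.6 CPM in Col-0, while PR1 stands at 42.9 and 44.5 CPM in seu-6 and at 2.02 and 3.25 CPM in Col-0.

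Salicylate and systemic immunity genes rose. Of 20 tested, 17 rose and none fell, beside 16.0% of all genes that rose and 11.8% that fell. The median log2 fold change was 0.85. Under every alternative 13 of the 17 calls held, and the count was 15 without either seu-6 replicate and 13 without Col-0 replicate 2. Regulators come first in the pathway. SARD1, which switches on salicylate synthesis, had 19.2 and 19.6 CPM in seu-6, against 5.54 and 5.93 CPM in Col-0, a log2 fold change of 1.76 ± 0.12, and its relative CBP60G one of 0.51 ± 0.090. The synthesis gene ICS1 had 26.8 and 27.4 CPM in seu-6, against 21.6 and 21.6 CPM in Col-0, and EDS5, the transporter that exports the precursor from plastids, had 36.0 and 36.7 CPM in seu-6, against 20.5 and 20.8 CPM in Col-0. PBS3, which acts on that precursor, had 10.6 and 10.51 CPM in seu-6, against 6.00 and 5.34 CPM in Col-0. The log2 fold changes of these 3 genes were 0.33, 0.82 and 0.89. Among response genes, PR1 had 44.5 and 42.9 CPM in seu-6, against 3.25 and 2.02 CPM in Col-0, with an adjusted p of 5.6e-35 by edgeR. BGL2 (PR2), a glucanase, had 24.0 and 24.6 CPM in seu-6, against 2.34 and 3.55 CPM in Col-0, a log2 fold change of 3.05 ± 0.11. WRKY70, a factor placed between salicylate and jasmonate signalling, had 41.6 and 41.9 CPM in seu-6, against 14.5 and 13.6 CPM in Col-0, and its relative WRKY54 had 8.40 and 8.98 CPM in seu-6, against 2.75 and 3.01 CPM in Col-0. Both seu-6 libraries were above both Col-0 libraries in each of these genes. Genes named for a small adjusted p will mostly separate in this way, here and in the other lists. With 2 libraries per genotype such separation adds no evidence of its own. FMO1, the enzyme of the mobile immune signal, rose (1.64), and so did DMR6, which degrades salicylate (1.35). ALD1, of the same signal, had 0.0963 and 0.382 CPM in seu-6, against 0.412 and 0.470 CPM in Col-0, and was not called. The genes EDS1 (0.17) and SAG101 (0.02) were not called.

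Indole glucosinolate and camalexin genes rose as well, 9 of 10 tested and none in the other direction, with a median of 0.53. These tryptophan-derived compounds deter insects and microbes. CYP83B1, which commits the pathway to glucosinolates, had 711 and 735 CPM in seu-6, against 476 and 453 CPM in Col-0, with a log2 fold change of 0.64 ± 0.037 and an adjusted p of 4.2e-18 by edgeR. CYP79B2, the entry enzyme, had 291 and 303 CPM in seu-6, against 197 and 192 CPM in Col-0, and MYB51, the regulator, had 32.2 and 32.1 CPM in seu-6, against 21.9 and 20.6 CPM in Col-0. PAD3, the last enzyme of camalexin synthesis, had 14.9 and 14.6 CPM in seu-6, against 9.21 and 9.57 CPM in Col-0. Each gene had its seu-6 libraries above those of Col-0, and MYB34, another regulator, was the member that was not called (0.08).

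Jasmonate genes rose in their majority. Of 28 tested, 22 rose and 3 fell, with a median of 0.40; 18 of these 25 calls held under every alternative, and the counts were 20 and 1 without seu-6 replicate 1 and 19 and 1 without Col-0 replicate 1. LOX2, the lipoxygenase of wounded leaves, went against the rest with 72.6 and 80.5 CPM in seu-6, against 137 and 132 CPM in Col-0, a log2 fold change of -0.81 ± 0.039. Other synthesis genes rose. LOX4 had 7.08 and 7.60 CPM in seu-6, against 2.497 and 3.01 CPM in Col-0, LOX3 had 11.8 and 12.3 CPM in seu-6, against 6.44 and 5.90 CPM in Col-0, and OPR3 had 56.8 and 55.4 CPM in seu-6, against 36.5 and 40.5 CPM in Col-0. The libraries of seu-6 were above those of Col-0 in the 3 genes. The AOC genes are close copies, so their separate values are uncertain. JAZ proteins repress jasmonate responses and are induced by the hormone. JAZ9 had 70.6 and 70.7 CPM in seu-6, against 36.7 and 33.7 CPM in Col-0, with a log2 fold change of 1.00 ± 0.056 and an adjusted p of 3.0e-23 by edgeR. JAZ10 had 12.7 and 11.3 CPM in seu-6, against 5.15 and 5.57 CPM in Col-0, JAZ1 had 86.8 and 85.9 CPM in seu-6, against 53.3 and 54.2 CPM in Col-0, and JAZ8 rose at low level, 1.90 and 1.70 CPM in seu-6, against 0.298 and 0.282 CPM in Col-0. JAZ6 had 46.8 and 50.8 CPM in seu-6, against 53.9 and 52.5 CPM in Col-0, and was not called. CYP94B3, which inactivates the hormone by oxidation, had 7.37 and 8.14 CPM in seu-6, against 2.04 and 2.21 CPM in Col-0, a log2 fold change of 1.87 ± 0.13. The receptor gene COI1 was not called (-0.10), and the storage protein gene VSP1 rose by 0.39 on the log2 scale. MYC2 is listed at 0 in the files and was not tested. PDF1.2, a defensin gene of the ethylene branch, had 0.217 and 0.573 CPM in seu-6, against 0.939 and 0.941 CPM in Col-0, and was not called.

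Seed storage genes were among the genes that rose most. Cruciferins and 2S albumins are the storage proteins of the Arabidopsis embryo, oleosins coat its oil bodies, and their transcripts are normally made during seed filling. The cruciferin gene CRA1 had 59.6 and 58.4 CPM in seu-6, against 0.252 and 0.118 CPM in Col-0, with a log2 fold change of 8.29 ± 0.17 and an adjusted p of 1.3e-44 by edgeR. CRC (CRU3) had 29.6 and 29.0 CPM in seu-6 and no count in Col-0, which is at least 421-fold higher in seu-6, and CRB (CRU2) had 15.1 and 16.2 CPM in seu-6 and no count in Col-0, at least 225-fold higher. The 2 seu-6 libraries were alike, and in Col-0 the genes were at or near 0. The albumin gene SESA3 had 26.5 and 27.3 CPM in seu-6 and no count in Col-0, at least 387-fold higher. SESA1 had 10.52 and 10.3 CPM in seu-6, against 0 and 0.0705 CPM in Col-0, SESA2 had 14.2 and 16.0 CPM in seu-6, against 0.0229 and 0.259 CPM in Col-0, and SESA4 had 10.1 and 9.46 CPM in seu-6, against 0.0916 and 0.0235 CPM in Col-0. OLEO1 had 12.1 and 11.3 CPM in seu-6 and no count in Col-0 (at least 168-fold higher), and OLEO2 had 5.42 and 5.09 CPM and no count (at least 75.4-fold). The SESA genes lie side by side and are close copies, so reads may be divided among them. 

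Not all embryo genes took part. OLEO4 was expressed in both genotypes, with 4.41 and 4.04 CPM in seu-6, against 2.13 and 2.16 CPM in Col-0, and the vicilin gene PAP85 had 4.26 and 4.78 CPM in seu-6, against 1.15 and 0.541 CPM in Col-0. The late embryogenesis gene EM1 had no count in any of the 4 libraries and EM6 at most 0.0470 CPM, while M17 fell, with 0.169 and 0.263 CPM in seu-6, against 1.01 and 1.06 CPM in Col-0. Among regulators, ABI3, which activates storage genes through the RY motif, had 1.13 and 0.621 CPM in seu-6, against 0 and 0.0235 CPM in Col-0. FUS3, of the same protein family, had 0.241 and 0.287 CPM in seu-6, against 0 and 0.0705 CPM in Col-0, and was not called. LEC1 and LEC2 did not pass the filter on low counts. Of the 18 listed genes 16 were tested; since some passed that filter through the seu-6 libraries alone, their number carries no weight of its own. 

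The high level was found in the mock of this experiment and not in the other seu-6 libraries. CRA1 had 0.989 and 0.916 CPM in seu-6 after 6 h in sorbitol and 1.07 and 0.571 CPM in seu-6 in the 15 min mock. A search of all genes, made after these values were seen, found 18 whose CPM in both seu-6 libraries of the 6 h mock exceeded 4 times the highest CPM of the other 14 libraries by more than 0.5 CPM. They were CRA1, CRU2, CRU3, SESA1, SESA2, SESA3, SESA4, OLEO1, OLEO2 and OLEO3, the fatty acid elongase gene KCS18, AOP3, MEE26, AT1G04660, AT1G47540, AT1G65090, AT2G28490 and AT4G36700. The same search found 0 genes that were low in those 2 libraries alone and 0 that were high in the Col-0 6 h mock alone. 

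**Figure D3:**
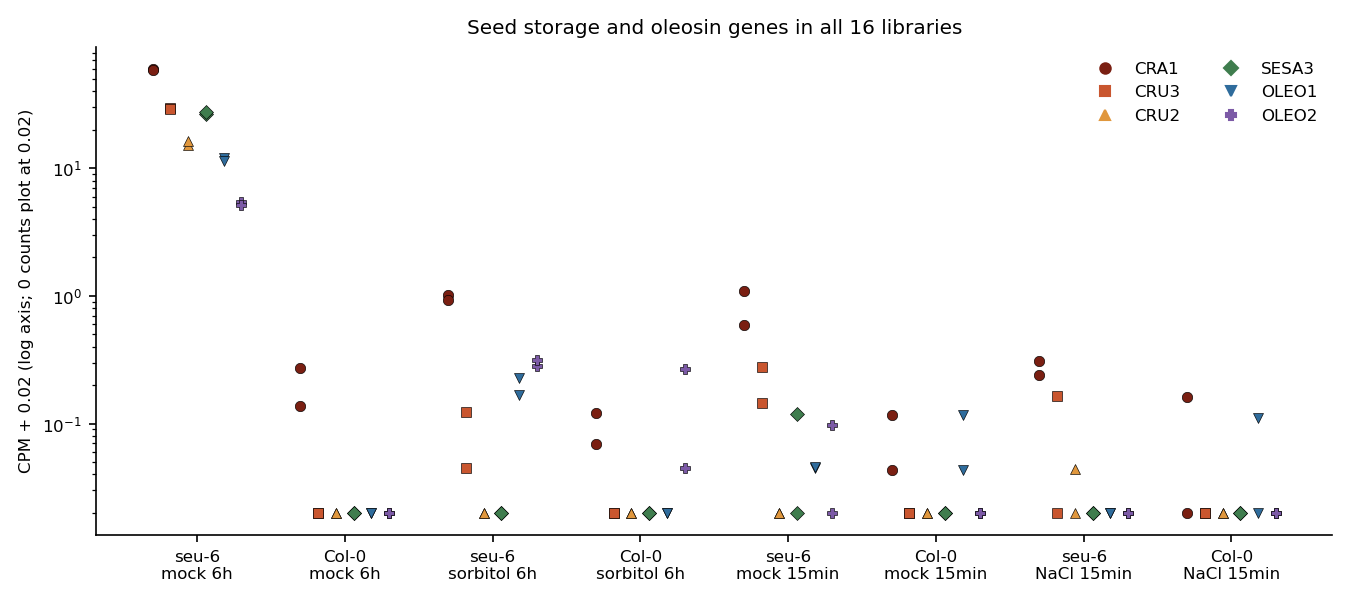
Level in CPM with 0.02 added (vertical log axis) of seed storage and oleosin genes in all 16 libraries, 1 point per library, grouped along the horizontal axis by genotype and medium. CRA1 stands at 58.4 and 59.6 CPM in the 2 seu-6 libraries of the 6 h mock and at or below 1.07 CPM in the other 14 libraries.

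The promoters of these genes are shown for the motif through which ABI3 and FUS3 act on storage genes in seeds. The RY motif, CATGCATG, which is its own reverse complement, was searched in the 250 bases before the annotated start of each gene in the RefSeq TAIR10.1 genome. It was found in 4 of the 18 listed genes (22.2%), beside 0.776% of 27443 protein-coding genes. Those 4 were SESA3, SESA4, OLEO4 and PAP85, so it was present both in genes near 0 in Col-0 and in genes expressed there. The SESA3 window is chr4:13611546-13611795 and that of SESA4 chr4:13613346-13613595, both on the plus strand; capitals mark the RY motif, which begins at -87 and again, overlapping, at -83 in SESA3 and at -113 in SESA4. A match is a description of these letters and not a shown binding site.
SESA3: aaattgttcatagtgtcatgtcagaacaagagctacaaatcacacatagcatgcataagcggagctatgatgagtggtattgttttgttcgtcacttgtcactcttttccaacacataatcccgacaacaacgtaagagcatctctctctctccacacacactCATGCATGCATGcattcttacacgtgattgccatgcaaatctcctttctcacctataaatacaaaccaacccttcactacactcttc
SESA4: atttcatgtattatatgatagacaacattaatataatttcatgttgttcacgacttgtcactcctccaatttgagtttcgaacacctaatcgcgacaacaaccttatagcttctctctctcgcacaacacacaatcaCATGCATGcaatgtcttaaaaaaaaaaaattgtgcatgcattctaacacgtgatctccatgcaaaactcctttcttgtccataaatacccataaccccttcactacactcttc

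ABA and dehydration genes split evenly, with 10 that rose and 11 that fell of 30 tested and a median of -0.02. The dehydrin gene COR47 had 699 and 732 CPM in seu-6, against 594 and 602 CPM in Col-0, and the cold and drought gene KIN2 had 245 and 265 CPM in seu-6, against 191 and 191 CPM in Col-0. KIN1, a close copy of KIN2, and COR15A also rose (0.24 and 0.36). In the other direction, ABF3, a factor that binds ABA response elements, had 32.4 and 28.0 CPM in seu-6, against 45.8 and 47.5 CPM in Col-0, a log2 fold change of -0.63 ± 0.049. NCED3, the enzyme that limits ABA synthesis under drought, had 2.33 and 1.62 CPM in seu-6, against 4.15 and 4.26 CPM in Col-0, and RD22, a dehydration gene, had 90.3 and 94.4 CPM in seu-6, against 126 and 127 CPM in Col-0. For ABF3, NCED3 and RD22 both seu-6 libraries were lower than both Col-0 libraries. LTI78 (RD29A) fell by 0.24 on the log2 scale, and P5CS1, of proline synthesis, by 0.33. TSPO, a membrane protein gene induced by ABA, had 0.313 and 0.239 CPM in seu-6 and no count in Col-0, at least 3.96-fold higher. That rests on 13 and 10 counts in seu-6. In sorbitol TSPO was lower in seu-6, with 18.9 and 17.7 CPM, against 44.3 and 39.8 CPM in Col-0. RD26 and HB-7 were not called (0.03 and -0.06). Of 9 ABA receptor genes, 5 rose and none fell, with a median of 0.22. PYL6 had 77.2 and 77.8 CPM in seu-6, against 54.2 and 51.6 CPM in Col-0, a log2 fold change of 0.55 ± 0.064, and PYR1 had 139 and 134 CPM in seu-6, against 94.5 and 102 CPM in Col-0, one of 0.47 ± 0.048.

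Among 16 CBF/DREB and ERF genes, 8 rose and 4 fell, with a median of 0.18; without Col-0 replicate 1 the counts were 5 and 4, and without seu-6 replicate 1 they were 6 and 4. The 3 CBF genes, which start the cold response and are close copies, were among those that fell. CBF3 had 0.241 and 0.263 CPM in seu-6, against 1.79 and 1.74 CPM in Col-0, a log2 fold change of -2.79 ± 0.28, and CBF2 had 2.12 and 1.84 CPM in seu-6, against 3.21 and 4.16 CPM in Col-0. RAP2.6, an ERF gene of stress and wounding, had 55.4 and 59.98 CPM in seu-6, against 24.7 and 26.5 CPM in Col-0, a log2 fold change of 1.17 ± 0.064. DREB2A, the drought and heat factor, had 4.38 and 4.49 CPM in seu-6, against 3.07 and 2.82 CPM in Col-0. ERF1, an integrator of ethylene and jasmonate, rose at low level, 0.867 and 1.05 CPM in seu-6, against 0.183 and 0.0941 CPM in Col-0. ERF105 and RRTF1 are listed at 0 and were not tested. Of 16 early stress genes of the ZAT, WRKY, MYB and calmodulin-like families, 10 rose and none fell, with a median of 0.43, and without seu-6 replicate 1 the counts were the same. CML38, a calcium sensor of wounding and low oxygen, had 16.9 and 16.9 CPM in seu-6, against 8.45 and 9.01 CPM in Col-0, with a log2 fold change of 0.95 ± 0.12 and an adjusted p of 8.0e-10 by edgeR. TCH3, a touch-induced calmodulin-like gene, had 85.0 and 90.02 CPM in seu-6, against 59.1 and 58.9 CPM in Col-0, and WRKY40 had 9.12 and 8.48 CPM in seu-6, against 5.43 and 5.41 CPM in Col-0. TCH2, another touch gene, had 16.6 and 18.1 CPM in seu-6, against 16.2 and 18.8 CPM in Col-0, with overlapping libraries.

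All 15 clock genes tested were called, 7 lower and 8 higher in seu-6, and morning genes mostly fell while evening genes rose. CCA1 and LHY, the morning repressors, had 19.4 and 20.1 CPM in seu-6, against 43.8 and 38.2 CPM in Col-0 for CCA1, and 13.2 and 14.4 CPM in seu-6, against 27.8 and 25.3 CPM in Col-0 for LHY. The log2 fold changes were -1.05 ± 0.065 for CCA1 and -0.95 ± 0.086 for LHY. RVE8, LNK2 and PRR9, which act in the morning, fell too (-1.18, -0.68 and -0.95), as did LNK1 (-0.43) and CDF1, a repressor of flowering that peaks near dawn (-0.89). Evening genes rose. ELF4, of the evening complex, had 14.8 and 16.96 CPM in seu-6, against 6.99 and 8.07 CPM in Col-0, a log2 fold change of 1.08 ± 0.10. FKF1, the blue light receptor of day length, had 40.01 and 43.9 CPM in seu-6, against 21.7 and 21.6 CPM in Col-0, a log2 fold change of 0.95 ± 0.064, and TOC1 had 102 and 104 CPM in seu-6, against 75.3 and 73.3 CPM in Col-0. In each of these genes the libraries of seu-6 lay on one side of those of Col-0. PRR5 (0.51), LUX (0.42), GI (0.31) and ELF3 (0.25) rose by less. PRR7 rose by 0.11 on the log2 scale and its call did not hold under every alternative.

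**Figure D4:**
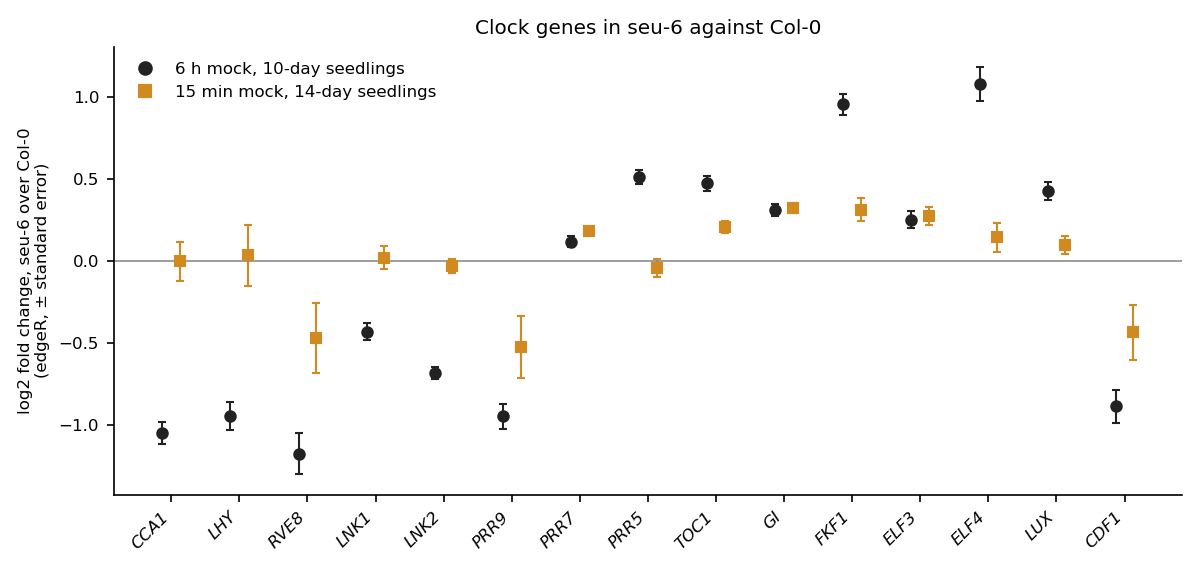
Log2 fold change of seu-6 over Col-0 (vertical axis) for 15 clock genes, along the horizontal axis, with the standard error from edgeR as bars, for the 6 h mock (circles) and the 15 min mock (squares). In the 6 h mock LNK2 stands at -0.68 and ELF4 at 1.08, and in the 15 min mock LNK2 stands at -0.03 and ELF4 at 0.14.

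The evening element, AAAATATCT, through which CCA1 and LHY bind and repress evening genes, was searched on both strands in the same 250-base windows. It was found in 4 of the 15 clock genes (26.7%), beside 2.36% of 27443 protein-coding genes. All 4, PRR5, TOC1, FKF1 and LUX, are evening or afternoon genes that rose in seu-6. ELF4, GI, ELF3 and PRR7 also rose and had no match in the window. A match is a description of letters and not a shown binding site, and its part in the rise was not tested. The windows of PRR5, TOC1, FKF1 and LUX, in that order and in the RefSeq TAIR10.1 genome, are chr5:8358547-8358796 on the minus strand and chr5:24674713-24674962, chr1:25508389-25508638 and chr3:17182792-17183041 on the plus strand. Each is printed in the direction of its gene, with the motif, or its reverse complement AGATATTTT, in capitals; it begins at -187 in PRR5, -151 in TOC1, -186 in FKF1 and -53 in LUX. Among other motifs searched in the same way, the ABA response element, ACGTGTC or ACGTGGC, whose letters overlap those of the G-box, CACGTG, was present in 46.7% of the clock genes beside 6.39% of all, and the W-box, TTGACC or TTGACT, was present in 20% of salicylate genes beside 28.4% of all.
PRR5: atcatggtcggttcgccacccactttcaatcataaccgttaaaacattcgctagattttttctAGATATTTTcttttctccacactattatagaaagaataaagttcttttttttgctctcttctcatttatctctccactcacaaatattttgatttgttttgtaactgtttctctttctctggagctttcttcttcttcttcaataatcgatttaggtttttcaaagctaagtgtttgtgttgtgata
TOC1: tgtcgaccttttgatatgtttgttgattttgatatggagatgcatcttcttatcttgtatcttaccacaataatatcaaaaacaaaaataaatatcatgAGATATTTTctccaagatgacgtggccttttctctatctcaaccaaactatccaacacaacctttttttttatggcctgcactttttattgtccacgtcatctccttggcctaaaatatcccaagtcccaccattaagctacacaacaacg
FKF1: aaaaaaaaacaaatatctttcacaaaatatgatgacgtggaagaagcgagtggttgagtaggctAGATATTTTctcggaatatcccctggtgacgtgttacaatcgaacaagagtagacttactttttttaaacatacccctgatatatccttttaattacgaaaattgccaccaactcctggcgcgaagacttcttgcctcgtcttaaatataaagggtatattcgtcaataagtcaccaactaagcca
LUX: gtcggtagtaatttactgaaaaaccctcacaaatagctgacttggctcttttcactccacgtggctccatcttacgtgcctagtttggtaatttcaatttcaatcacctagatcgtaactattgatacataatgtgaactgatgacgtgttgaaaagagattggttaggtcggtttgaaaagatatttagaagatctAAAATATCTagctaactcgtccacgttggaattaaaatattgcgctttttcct

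Light harvesting genes fell slightly but together. Of 21 genes of the antenna and of Rubisco, 18 fell and 3 rose, with a median of -0.22, and without seu-6 replicate 1 the counts were 17 and 2. LHCA4, an antenna gene of photosystem I, had 2884 and 2929 CPM in seu-6, against 3832 and 3852 CPM in Col-0, with a log2 fold change of -0.40 ± 0.027 and an adjusted p of 6.8e-19 by edgeR. LHCB2.1, of photosystem II, had 1301 and 1330.3 CPM in seu-6, against 1891 and 1894 CPM in Col-0, a log2 fold change of -0.52 ± 0.027. LHCB5, a single-copy antenna gene, had 2989 and 3021 CPM in seu-6, against 3430.4 and 3512 CPM in Col-0. Both genotypes were tight and did not overlap in these genes. The LHCB1 and RBCS genes are close copies, so single values are uncertain, and LHB1B2 is listed at 0 and was not tested. RBCS2B (0.38) and RBCS1B (0.41), small subunits of Rubisco, rose. RCA, the Rubisco activase gene, fell by 0.11 on the log2 scale.

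Genes of leaf polarity and the shoot meristem fell or were not called. Of 17 tested, 10 fell and none rose, with a median of -0.37. SEU and LUG are known to act with YABBY factors in leaf polarity and with ANT in petal and ovule growth. AS1, which keeps meristem genes off in leaves, had 23.0 and 21.3 CPM in seu-6, against 38.5 and 39.1 CPM in Col-0, a log2 fold change of -0.81 ± 0.070. ANT, a promoter of organ growth, had 15.3 and 16.8 CPM in seu-6, against 26.5 and 28.7 CPM in Col-0, one of -0.78 ± 0.086. REV, of the upper leaf side, had 40.8 and 42.1 CPM in seu-6, against 62.0 and 56.2 CPM in Col-0, and KAN, of the lower side, had 11.4 and 11.1 CPM in seu-6, against 16.4 and 14.7 CPM in Col-0. In the 4 genes every seu-6 library was below every Col-0 library. AFO (FIL) and YAB3, the YABBY genes of the lower side, fell (-0.40 and -0.32), as did KNAT1 (-0.68). The meristem gene STM had 6.14 and 6.04 CPM in seu-6, against 4.88 and 4.44 CPM in Col-0, and was not called. Calls covered 21.4% of the flowering genes tested, beside 27.8% of all genes. Flowering genes gave 3 that fell and none that rose of 14, and 1 of each without seu-6 replicate 2. AGL20 (SOC1), which promotes flowering, had 28.7 and 30.8 CPM in seu-6, against 44.1 and 43.9 CPM in Col-0, a log2 fold change of -0.56 ± 0.057, and its call held under every alternative, unlike those of AP2 and SVP. AG, the textbook target of SEU repression in flowers, had 1.64 and 0.430 CPM in seu-6, against 0.573 and 0.494 CPM in Col-0, and was not called; the libraries of the genotypes overlapped, and it passed the threshold only without seu-6 replicate 2 (adjusted p = 0.016 by edgeR). FT had 0.650 and 0.812 CPM in seu-6, against 1.01 and 0.541 CPM in Col-0, and LFY had at most 0.389 CPM.

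Other hormone pathways moved in part. The called share was 50% for gibberellin, 88.9% for cytokinin and 42.9% for ethylene genes, beside 27.8% of all genes. Among 18 gibberellin genes, 3 rose and 6 fell, and without seu-6 replicate 1 the counts were 4 and 4. GASA6 (0.69) and GASA4 (0.58), gibberellin-responsive peptide genes, rose, and GAI, a DELLA repressor gene, had 37.0 and 32.8 CPM in seu-6, against 57.6 and 55.8 CPM in Col-0. GA20OX2, a synthesis gene, fell at low level, 0.794 and 1.29 CPM in seu-6, against 2.89 and 3.104 CPM in Col-0. The DELLA gene RGA1 had 100.4 and 102 CPM in seu-6, against 109 and 108 CPM in Col-0, and was not called. Of 9 type-A response regulators, which cytokinin induces, 7 rose and 1 fell, with a median of 0.35; 4 of the 8 calls held under every alternative, and the counts were 5 and 0 without seu-6 replicate 1 and 6 and 0 without Col-0 replicate 2. ARR6 had 25.6 and 26.7 CPM in seu-6, against 14.9 and 17.1 CPM in Col-0, a log2 fold change of 0.71 ± 0.10, and ARR5 had 19.4 and 20.4 CPM in seu-6, against 12.6 and 11.5 CPM in Col-0, one of 0.72 ± 0.11. Ethylene genes gave 1 that rose and 5 that fell of 14, with a median of -0.05, and none rose without seu-6 replicate 2. The synthesis gene ACS8 had 1.37 and 1.34 CPM in seu-6, against 6.12 and 6.23 CPM in Col-0, with a log2 fold change of -2.19 ± 0.24 and an adjusted p of 1.4e-11 by edgeR, and the signalling genes EIN2 (-0.01) and EIN3 (0.06) were not called.

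Of 21 cell wall genes, 11 fell and 4 rose. The secondary wall cellulose synthases CESA4 (-0.37), CESA7 (-0.36) and CESA8 (-0.56) fell, while the primary wall synthases CESA1, CESA3 and CESA6 were not called, with log2 fold changes between -0.05 and 0.06. XTH23, a wall-remodelling hydrolase gene, rose with 11.7 and 9.96 CPM in seu-6, against 3.99 and 4.56 CPM in Col-0, and TCH4 had 119 and 124 CPM in seu-6, against 78.7 and 76.5 CPM in Col-0. XTH4 fell, with 286 and 292 CPM in seu-6, against 384 and 384 CPM in Col-0, and the expansin EXPA4 fell by 0.51 on the log2 scale. Aquaporins gave 7 that rose and 7 that fell of 19, or 4 and 6 without seu-6 replicate 2 or without Col-0 replicate 2, and 9 of these 14 calls held under every alternative. TIP2;2, of the vacuole membrane, had 78.8 and 87.8 CPM in seu-6, against 123 and 123 CPM in Col-0, and PIP1A, of the plasma membrane, had 428 and 444 CPM in seu-6, against 360.1 and 357 CPM in Col-0.

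The myrosinase genes TGG1 and TGG2 fell, while genes of side chain elongation rose. Of 15 aliphatic glucosinolate and myrosinase genes, 8 rose and 6 fell, with a median of 0.20; without seu-6 replicate 1, 8 rose and 4 fell. The second leaf myrosinase gene, TGG1, had 942 and 1041 CPM in seu-6, against 2167 and 2023 CPM in Col-0, a log2 fold change of -1.08 ± 0.050. ESM1, which favours isothiocyanate release, had 401 and 397 CPM in seu-6, against 689 and 685 CPM in Col-0, and NSP1, which favours nitriles, had 710.5 and 795 CPM in seu-6, against 425 and 413 CPM in Col-0. The genotypes lay apart in all 3 genes, with NSP1 alone higher in seu-6. Of synthesis genes, BCAT4 rose (0.50) and so did MAM3 (0.36), whereas MYB29, a regulator of the pathway, fell (-0.75). TGG1 and TGG2 are known to be made in guard cells and in myrosin idioblasts, and FAMA, the factor required for both cell types, fell as well, with 22.2 and 22.5 CPM in seu-6, against 29.9 and 28.1 CPM in Col-0. Of 9 guard cell lineage markers, KAT1, an ion channel gene, also fell, with 15.8 and 15.2 CPM in seu-6, against 22.2 and 24.5 CPM in Col-0, and TMM rose by 0.19 on the log2 scale, a call that was lost when any 1 of the 4 libraries was left out. MYB60, another guard cell gene, had 21.9 and 19.1 CPM in seu-6, against 19.4 and 19.4 CPM in Col-0, and SPCH, which starts the lineage, had 19.0 and 19.3 CPM in seu-6, against 15.8 and 16.7 CPM in Col-0; neither was called. Calls covered 33.3% of the guard cell lineage markers, beside 27.8% of all genes. The part of guard cell and idioblast number in the TGG values was not tested.

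Of 19 root markers tested, 2 rose and 2 fell, 21.1% beside 27.8% of all genes, and their summed level was 217 and 226 CPM in seu-6, against 234 and 237 CPM in Col-0. Only 1 root marker rose without seu-6 replicate 1, Col-0 replicate 1 or Col-0 replicate 2, and 1 fell without Col-0 replicate 2. CASP5, an endodermal membrane gene, had 2.77 and 3.296 CPM in seu-6, against 0.756 and 0.705 CPM in Col-0, whereas CASP1 to CASP4 of the same family were not called, with log2 fold changes between -0.06 and 0.24. SHR, the root patterning gene, had 12.04 and 12.04 CPM in seu-6, against 18.3 and 19.5 CPM in Col-0. Calls covered 33.3% of the trichome regulators and 23.1% of the replication and division genes, also near the 27.8% of all genes. Trichome regulators gave 2 that fell of 6, neither of which held without seu-6 replicate 1 or without Col-0 replicate 2, and 1 fell without each of the other two libraries. Replication and division genes gave 2 that rose and 1 that fell of 13, none of which held under every alternative; the counts were 1 and 0 without seu-6 replicate 1, 1 and 1 without Col-0 replicate 2 and 2 and 0 without Col-0 replicate 1.

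NRT2:1, the inducible high-affinity nitrate transporter gene, had 14.1 and 14.0 CPM in seu-6, against 39.9 and 41.0 CPM in Col-0, with a log2 fold change of -1.53 ± 0.085 and an adjusted p of 3.4e-23 by edgeR, and NRT1.1 fell by 0.24 on the log2 scale; of 5 nitrate genes 2 rose and 2 fell, and these counts were the same without each library in turn. Of 16 iron genes tested, 4 rose, 3 fell and 9 were not called, a called share of 43.8% beside 27.8% of all genes. Ferritins store iron, and 3 of the 4 iron genes that rose encode them. FER1 had 129 and 133 CPM in seu-6, against 70.4 and 73.1 CPM in Col-0. FER3 had 52.6 and 52.9 CPM in seu-6, against 35.6 and 35.3 CPM in Col-0. FER4 had 28.7 and 32.7 CPM in seu-6, against 20.4 and 22.5 CPM in Col-0. OPT3, a phloem iron transporter gene, had 138 and 153 CPM in seu-6, against 189.9 and 188 CPM in Col-0. The root uptake genes IRT1 (0.22) and FRO2 (-0.12) were not called. Phosphate starvation genes gave 6 that rose and 4 that fell of 21, with 5 of those calls kept under every alternative; the counts were 4 and 2 without either seu-6 replicate and 6 and 2 without Col-0 replicate 1. RNS1, a ribonuclease gene, had 28.5 and 30.4 CPM in seu-6, against 19.4 and 19.7 CPM in Col-0, and MGD2, of galactolipid synthesis, had 1.66 and 1.41 CPM in seu-6, against 2.86 and 3.27 CPM in Col-0. In the lists that follow, the called share was near the 27.8% of all genes. It was 25% for sulphate, 28.6% for flavonoid, 30% for heat shock and 33.3% for folding genes. Sulphate genes gave 2 that rose of 8 (1 without seu-6 replicate 2), among them APR1 (0.21). Of 14 flavonoid genes, 3 rose and 1 fell, or 2 and 0 without seu-6 replicate 1 and 3 and 0 without Col-0 replicate 2; TT4, chalcone synthase, had 79.1 and 72.7 CPM in seu-6, against 48.1 and 45.004 CPM in Col-0, and FLS1, flavonol synthase, had 23.3 and 21.3 CPM in seu-6, against 14.0 and 13.5 CPM in Col-0. Of 10 heat shock genes 3 rose, or 1 without seu-6 replicate 1, of which HSP90.1 (0.77) held under every alternative, and of 6 folding genes of the endoplasmic reticulum 2 rose, or 1 without either seu-6 replicate or Col-0 replicate 2, of which BIP3 (1.08) held.

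The same genotypes were also compared in the 15 min mock, which shares no library with the 6 h mock. In that comparison 3084 of 22066 genes (14.0%) were higher and 2852 (12.9%) lower in seu-6. Age and time in liquid medium differ together between the mocks, which also come from separate experiments. The hour of harvest is not given and may differ too, so none of these can be told apart. Genes higher in both mocks numbered 1402, which is 40.5% of those at 6 h and 45.5% of those at 15 min, and genes lower in both numbered 969, which is 38.0% and 34.0%. The calls were opposite for 602 genes, 10.0% of those called at 6 h. The difference between the 2 genotype differences was tested in 1 fit of all 16 libraries: in 2055 of 22582 genes (9.10%) the log2 fold change of seu-6 over Col-0 was higher at 6 h than at 15 min, and in 1599 (7.08%) it was lower.

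Jasmonate, early stress and ERF genes often went in opposite directions in the mocks. At 15 min 19 of the jasmonate genes fell and 3 rose, and the difference between mocks was higher at 6 h for 22 and lower for 1. JAZ9 had a log2 fold change of 1.00 ± 0.056 at 6 h and -0.46 ± 0.032 at 15 min, a difference of 1.47 ± 0.059 with an adjusted p of 5.1e-30 by edgeR. TAT3 had 3.09 ± 0.12 at 6 h and 0.31 ± 0.047 at 15 min, higher in seu-6 in both, and LOX2 went the other way, with -0.81 ± 0.039 at 6 h and 1.02 ± 0.032 at 15 min. Of the early stress genes 14 fell and 1 rose at 15 min, and 13 differed upward between mocks. Of the CBF/DREB and ERF genes 16 fell at 15 min, with 12 differing upward and 1, CBF3, downward. Indole glucosinolate and camalexin genes gave 2 higher and 7 lower at 15 min, with 8 differing upward; PAD3 was the member with a lower difference at 6 h (0.65 at 6 h and 1.23 at 15 min). Phosphate starvation genes were lower at 15 min, 19 of 21 with a median of -1.005, and 15 differed upward. AT4, the non-coding phosphate gene, had 0.52 ± 0.080 at 6 h and -1.69 ± 0.043 at 15 min.

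Auxin, light harvesting and salicylate genes behaved otherwise. Auxin genes mostly fell in both mocks, 17 of them at 15 min with 1 that rose, and the difference between mocks was lower at 6 h for 15 and higher for 2. PIN7 had -1.32 ± 0.038 at 6 h and -0.39 ± 0.045 at 15 min, and GH3.3 had -2.47 ± 0.12 at 6 h and -0.49 ± 0.12 at 15 min, with adjusted p of 1.4e-21 and 1.7e-12 by edgeR for the differences. AUX1 and LAX2 were lower in both mocks and the difference between mocks was not called. Light harvesting and Rubisco genes gave 14 higher and 3 lower at 15 min, and 20 had a lower difference at 6 h; LHCA4 had -0.40 ± 0.027 at 6 h and 0.07 ± 0.022 at 15 min. Salicylate genes mostly rose in both mocks, 15 at 15 min with 1 that fell, and 9 differed upward, among them PR1 (4.05 ± 0.10 at 6 h and 3.12 ± 0.037 at 15 min), and 2 downward. CCA1 had -1.05 ± 0.065 at 6 h and -0.01 ± 0.12 at 15 min, a difference with an adjusted p of 7.3e-11 by edgeR. Of 16 seed genes, 7 had a higher difference at 6 h and none a lower one. Only 5 of the listed seed genes were tested at 15 min. Some entered the fit of all 16 libraries through the seu-6 libraries of the 6 h mock alone, so these counts carry no weight of their own. For CRB, CRC, SESA3, OLEO2 and EM1 the difference had no usable standard error. SESA1 had a difference of 9.30 ± 0.75 (adjusted p = 6.2e-16 by edgeR), with 8.10 ± 0.41 at 6 h and -1.20 ± 0.67 at 15 min, where it was not called. CRA1 had 8.29 ± 0.17 at 6 h and 3.71 ± 0.99 at 15 min, with an adjusted p of 0.0014 by edgeR for the difference, and SESA2, SESA4, OLEO1, OLEO4 and PAP85 were the others with a higher difference.

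**Figure D5:**
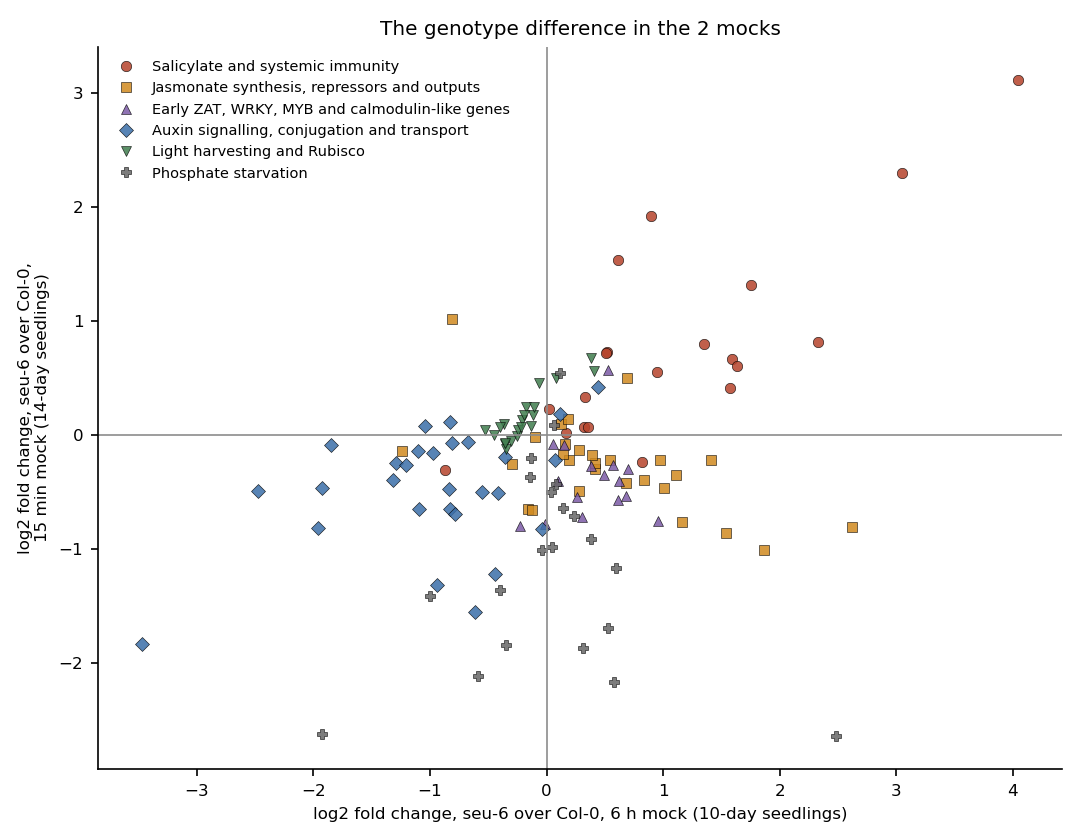
Log2 fold change of seu-6 over Col-0 in the 6 h mock (horizontal axis) and in the 15 min mock (vertical axis) for the members of 6 lists that were tested in both, 1 point per gene. Jasmonate genes lie mostly where the value is positive at 6 h and negative at 15 min, such as JAZ9 at 1.00 and -0.46, and auxin genes lie mostly below 0 in both, such as IAA29 at -3.47 and -1.83.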

How the data were processed

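The deposited files hold raw counts per gene, with a file for each library. The submitters' processing notes name TAIR10, HISAT2 2.2.1, HTSeq 0.13.5 and DESeq2. Strand setting and annotation release were not given in the sources used here, so overlapping and antisense genes are uncertain. Per the labels' protocols, RNA was taken with Trizol, treated with DNase and selected for poly(A). Summary lines of reads outside genes, 8.78% to 12.7% of a library, were left out. Libraries held 39756463 to 42676953 gene counts. A floor of 3 counts covers only the error of counting.

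Counts were tested in R 4.3.3 with the robust quasi-likelihood F test of edgeR 4.0.16 (limma 3.58.1), after TMM scaling and filterByExpr, with 1 mean per group over the 8 libraries of the 10-day experiment (4 residual degrees of freedom). A gene was called at a Benjamini-Hochberg adjusted p under 0.05. A standard error is the size of the log2 fold change over the square root of F. CPM were scaled by TMM within each experiment. The difference from the 15 min mock was fitted on all 16 libraries. The fits were tested on simulated counts.

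The comparison and the 32 gene lists (504 members used of 505) were chosen with earlier results of these data known, and lists are described by counts and medians only. The rule for genes named takes SEU and its partners, the 15 largest changes in each direction among genes averaging 2 or more in log2 CPM with no overlap between genotypes, at most 4 called members per list, taken by adjusted p, and the 5 genes of smallest p in each direction of the difference between mocks. Other members are named for their role, after their values were seen. As alternatives, edgeR with the size factors of DESeq2, DESeq2 1.42.0 itself, no filter, the replicate number as a block, the 4 libraries alone, all 16 libraries, and each library left out in turn were run. Symbols and the 250 bases before each gene's start came from RefSeq TAIR10.1, in which 32548 of 32833 loci were found.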

Additional observations from a re-analysis of the deposited data

Results flagged for a closer look

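The difference between seu-6 and Col-0 was not the same in the 6 h mock as in the 15 min mock for 2055 genes with a higher value at 6 h and 1599 with a lower one, by edgeR's test of the difference over all 16 libraries. The 5 genes of smallest p in each direction follow, with log2 fold changes of seu-6 over Col-0. TAT3, the aminotransferase gene, had 3.09 at 6 h and 0.31 at 15 min, a difference of 2.78 ± 0.12. AT5G03545, the phosphate-responsive non-coding gene AT4, had 0.52 and -1.69, a difference of 2.21 ± 0.080. AT5G26260, a TRAF-like family gene, had 1.43 and -0.10, a difference of 1.53 ± 0.047. TIFY7 (JAZ9) had a difference of 1.47 ± 0.059, and ECS1 had 2.19 and 0.85, a difference of 1.34 ± 0.050. All 5 were called higher in seu-6 at 6 h.

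In the other direction, AT3G28220, also of the TRAF-like family, had -1.97 at 6 h and 0.15 at 15 min, a difference of -2.13 ± 0.10. FAR1 had -2.59 and -0.51, a difference of -2.08 ± 0.11, and LOX2 had -0.81 and 1.02, a difference of -1.84 ± 0.053. AT1G72180, a receptor-like kinase gene, had -0.67 and 0.60, a difference of -1.27 ± 0.066, and BGLU18, a beta-glucosidase of the endoplasmic reticulum body, had -0.66 and 0.48, a difference of -1.13 ± 0.045. The mocks differ together in seedling age, time in liquid medium and experiment, and perhaps in hour of harvest, so these cannot be told apart.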

How the results depend on the processing

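The number of genes that rose lay between 2705 and 3558, and the number that fell between 1890 and 2722, over 10 alternatives, beside 3461 and 2552. With DESeq2 they were 2840 and 2185, and leaving out 1 library gave 2705 to 2821 and 1890 to 2009. For the difference between mocks, 1617 to 2077 genes were higher and 1243 to 1842 lower at 6 h, beside 2055 and 1599. SEU kept a log2 fold change between -6.76 and -6.39. Among 484 list members tested, 307 were called, beside 27.8% of all genes. The lists were chosen with earlier results known, so that comparison is not evidence of pathway change. None of the 307 changed sign, and 75 missed the threshold under at least 1 alternative. Of the 177 that were not called, 62 changed sign, PIF4, LAX3, RD26, HB-7, SAG101, TCH2 and FRO2 among them, and 23 passed the threshold under at least 1 alternative. Of the 150 results named by rule, 18 lost their call under at least 1 alternative, 1 (SLK2) gained one, and 2 uncalled ones changed sign: SLK1 without seu-6 replicate 1 (0.028; with each library left out in turn, -0.078 to 0.028), and LUG without Col-0 replicate 2 (0.056; range -0.092 to 0.056) and without seu-6 replicate 1 (0.013). The replicate numbers did not pair the libraries (correlations of same-numbered deviations between -0.0702 and 0.0618 over 6 pairs of groups); with the replicate number as a block 3427 genes rose and 2526 fell, and for the difference 2026 and 1564. Counts of list members under these settings were added after seeing the data. With 2 libraries per genotype, a gene that missed the threshold is not shown to be alike in the genotypes, and a gene with fewer than 3 counts in a library was below the floor. One allele, whole seedlings and 1 time point limit the comparison, and close copies such as the SESA, AOC, CBF, LHCB1 and RBCS genes share reads.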
